A study of Mus musculus with 21 samples.

Results

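Alveolar fibroblasts are the matrix-producing cells of the walls between air sacs. They lie against alveolar type 2 cells and capillaries and are known for laying down the thin elastic and basement membrane matrix, for storing lipid and vitamin A esters and for secreting growth factors that support the epithelium. Their relatives in the same organ are the adventitial fibroblasts around larger vessels and airways, marked by Pi16, and the peribronchial cells and smooth muscle marked by Hhip, an inhibitor of hedgehog signaling. Their level was read here as unique molecular identifiers (UMIs), each standing for 1 captured RNA molecule, in droplet single-cell RNA sequencing.

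Members were selected on measured UMIs in unchallenged lung and lung metastasis TME (tumor microenvironment) libraries. A cell had to hold a UMI of at least 2 of the 5 fibroblast genes Col1a1, Col1a2, Col3a1, Dcn and Pdgfra and of at least 3 of the 6 alveolar genes Npnt, Itga8, Mfap4, Inmt, Limch1 and Tcf21. It could hold fewer than 2 of the 3 adventitial genes Pi16, Scara5 and Dpt, and no UMI of Ptprc, Pecam1, Epcam or Hhip. The rule found 212 members among 45034 cells of these libraries and among 100359 cells of the series. Of the 45034 cells, 1134 met its fibroblast part, taken as at least 2 of the 5 fibroblast genes and no UMI of Ptprc, Pecam1 or Epcam. These are the cells with the fibroblast genes named below. The lung metastasis TME came from mT/mG mice, whose cells all carry membrane tdTomato because no Cre was present, after subcutaneous transplantation of unlabelled MT-ret melanoma fragments into males and females of 8 to 10 weeks and resection of the primary tumor. Metastasis samples held some neighboring lung outside the tumor, so a member of these libraries need not have lain in a metastasis. Unchallenged lung came from mice without a tumor, whose strain and age were not given in the sources used here. Cells were sorted as living tdTomato+ or living tdTomato+ CD45- cells, and which gate served which library was not given either.

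Nearly all members came from 4 libraries. Unchallenged lung held 140 members, with 2, 37, 27 and 74 in replicates 1, 4, 5 and 6. The lung metastasis TME held 72, of which 68 were from replicate 5 and 1, 2 and 1 from replicates 1-3, 4 and 6. A metastasis level below is therefore the level of 1 library. Of the cells with the fibroblast genes, members made up 72.5% (37 of 51) in lung replicate 4, 22% (27 of 123) in replicate 5 and 21.3% (74 of 348) in replicate 6, and 13.5% (68 of 504) in lung metastasis TME replicate 5, with exact 95% counting intervals of 58.3 to 84.1%, 15.0 to 30.3%, 17.1 to 25.9% and 10.6 to 16.8%. Lung metastasis TME replicate 6 had 1 member among 96 such cells, and the same cells are also deposited under a sorted melanoma name, so which of the sorts they came from is not settled. As a background for the rule, it found 0 of 16, 0 of 188, 1 of 154 and 3 of 1794 cells with the fibroblast genes in the 4 primary tumor TME libraries and 0 in the sorted melanoma libraries. No test was made on these shares, since the rule picks the cells.

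**Figure D1:**
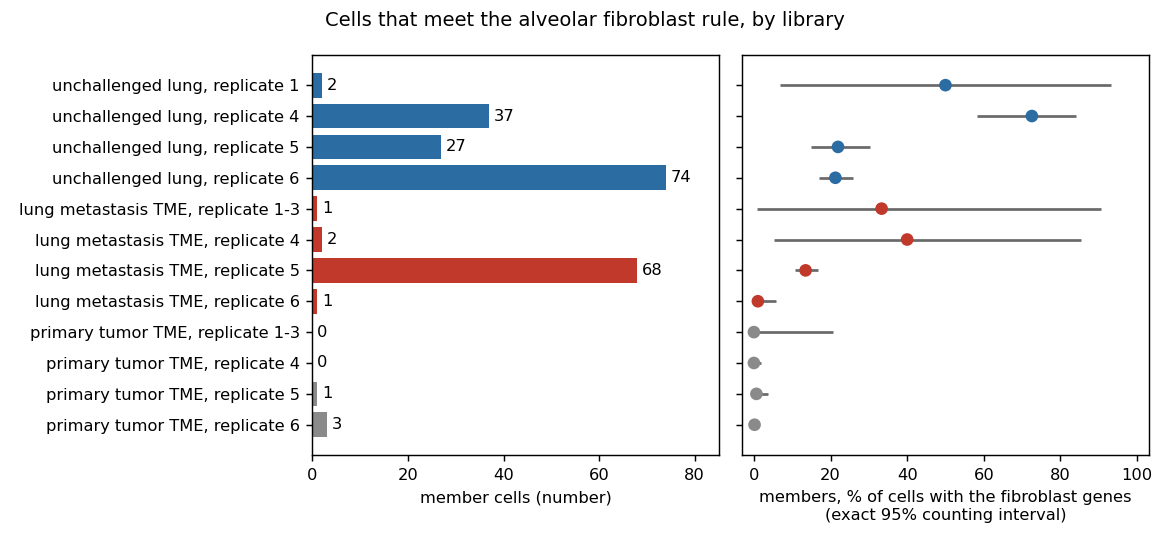
Number of member cells (left) and members as a percent of the cells with the fibroblast genes (right, point with exact 95% counting interval) in each unchallenged lung (blue), lung metastasis TME (red) and primary tumor TME (gray) library. Lung replicates 4 to 6 and metastasis replicate 5 hold 27 to 74 members each and every other library holds at most 3.

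The members differed in depth and in RNA of other cells. Median UMIs per member were 5327, 5950 and 1401 in lung replicates 4, 5 and 6 and 2677 in metastasis replicate 5, and the summed members held 189081, 154194, 136239 and 219711 UMIs. Melanoma RNA was highest in metastasis replicate 5. The 7 melanoma markers summed to 0 CPM (the UMIs of a gene as a share of all UMIs of the summed members, on the usual CPM scale) in all 3 lung libraries and to 8443 CPM in metastasis replicate 5, where all 68 members held Dct. In metastasis replicates 1-3, 4 and 6, with 1, 2 and 1 members, they summed to 106, 236 and 4874 CPM, from 1, 3 and 6 UMIs. Dct had a median of 12 UMIs per member in metastasis replicate 5, against 10, 10 and 11 per adventitial, Hhip and endothelial cell of that library, in all of which every cell held it. Club cell markers summed to 42.3, 3353, 2430 and 4033 CPM in lung replicates 4, 5 and 6 and metastasis replicate 5, and macrophage and neutrophil markers were highest in lung replicate 6, at 2723 and 3692 CPM. The 4 libraries shared at most 48 cell barcodes with each other. Endothelial cells of the same libraries, taken as cells with Pecam1 and at least 2 of 8 endothelial markers but no Ptprc, Epcam, Col1a1, Col1a2, Col3a1 or Pdgfra, serve below as values set beside the members. The part of melanoma, club cell or leukocyte RNA in a difference was not tested.

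Of the 6 alveolar genes of the rule, 5 stood lower in metastasis replicate 5 than in lung replicates 4, 5 and 6. Over all genes tested, 37.1% lay below and 27.4% above lung replicates 4, 5 and 6. Npnt encodes nephronectin, a basement membrane ligand of the integrin alpha8 beta1, and had 3311, 2374 and 2422 CPM in unchallenged lung replicates 4, 5 and 6 and 1106 CPM in lung metastasis TME replicate 5. Itga8, the alpha8 chain of that integrin, had 1158, 733 and 573 CPM in unchallenged lung replicates 4, 5 and 6 and 350.5 CPM in lung metastasis TME replicate 5. Tcf21, a transcription factor of lung mesenchyme, had 883, 233 and 220.2 CPM in unchallenged lung replicates 4, 5 and 6 and 36.4 CPM in lung metastasis TME replicate 5. For all 3 genes the metastasis library lay below lung replicates 4, 5 and 6. Limch1, an actomyosin regulator, had 2316, 2387 and 1615 CPM in unchallenged lung replicates 4, 5 and 6 and 1161 CPM in lung metastasis TME replicate 5, and Inmt, a methyltransferase of small amines, had 4168, 6861 and 6334 CPM in unchallenged lung replicates 4, 5 and 6 and 3195 CPM in lung metastasis TME replicate 5. Both were again lowest in metastasis replicate 5 of these 4 libraries, while Mfap4, a microfibril-associated glycoprotein, was highest there, with 1655, 1310.0 and 859 CPM in unchallenged lung replicates 4, 5 and 6 and 2922 CPM in lung metastasis TME replicate 5. The 4 members of the other metastasis libraries, pooled, held 4703 CPM of Inmt (exact 95% interval 3866 to 5669) and 1967 CPM of Limch1 (1440.0 to 2624), both within the range of the lung libraries, so for these the lower level was that of 1 library. They held 812 CPM of Npnt (489 to 1269), 257 of Itga8 (94.2 to 558) and 42.8 of Tcf21 (1 UMI), and 33 UMIs of Mfap4, 1411 CPM (exact 95% interval 971 to 1982), within the range of the lung libraries, and the 2 of lung replicate 1 held 2296 CPM. These genes chose the cells, so the levels are a description without a test. Pdgfra, the growth factor receptor used in the fibroblast part of the rule, had 2068, 1193 and 1233 CPM in unchallenged lung replicates 4, 5 and 6 and 478 CPM in lung metastasis TME replicate 5, and Dcn (decorin) ran from 26.4 CPM in lung replicate 4 to 2224 CPM in lung replicate 5.

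At an equal depth of 1000 UMIs per cell the same genes were found in unlike shares of members. Tcf21 had a UMI in 14 of 37 (37.8%), 5 of 27 (18.5%) and 10 of 66 (15.2%) members of lung replicates 4, 5 and 6 and in 3 of 68 (4.41%) of metastasis replicate 5. Mfap4 had one in 22 of 37 (59.5%), 14 of 27 (51.9%) and 31 of 66 (47.0%) against 51 of 68 (75.0%). Npnt was found in 34 of 37 (91.9%), 18 of 27 (66.7%) and 49 of 66 (74.2%) against 45 of 68 (66.2%), so the metastasis share of Npnt lay just below the lowest lung share. In endothelial cells, which should lack Tcf21, its share was at most 0.298%. Detection of the 6 alveolar genes also varied between lung libraries. All 6 were present in 21 of 37 members of lung replicate 4, 11 of 27 of replicate 5, 7 of 74 of replicate 6 and 4 of 68 of metastasis replicate 5, and exactly 3 in 3, 7, 31 and 18. Just outside the limit, cells with 2 of the 6 genes numbered 1, 0, 32 and 29, and in metastasis replicate 5 they held 140.2 CPM of Npnt and 258 CPM of Inmt, where the members with exactly 3 held 234 and 623 CPM.

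**Figure D2:**
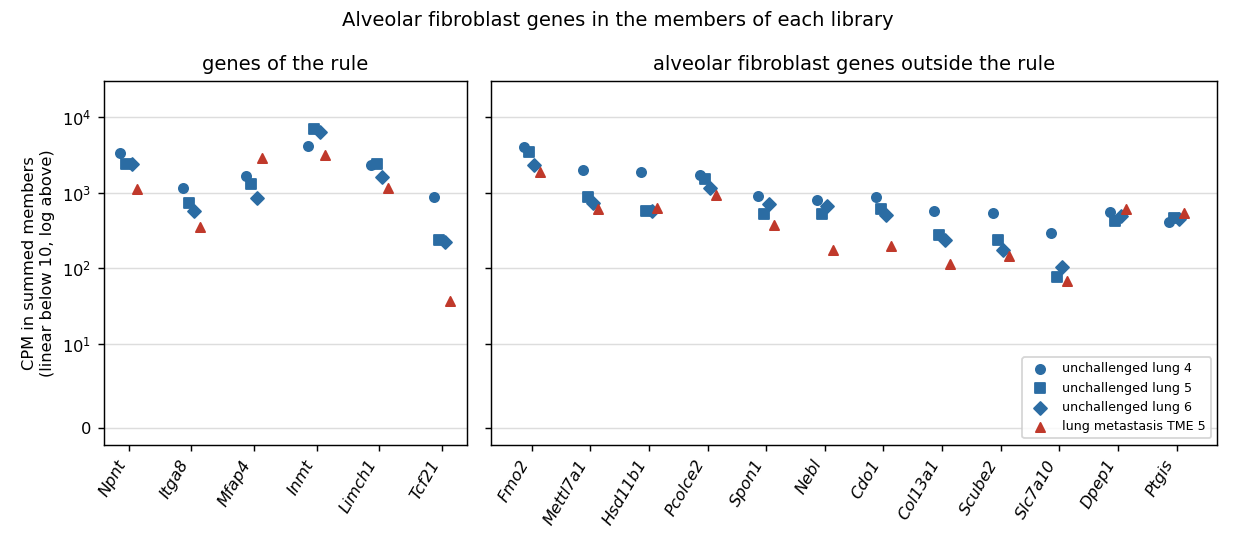
Level in CPM of the summed members (vertical axis, linear below 10 and log above) of the 6 alveolar genes of the rule (left) and of 12 alveolar fibroblast genes outside it (right), one point for each of 3 unchallenged lung libraries (blue) and lung metastasis TME replicate 5 (red). The red point of Tcf21 lies at 36.4 CPM, below all blue points, and that of Mfap4 at 2922 CPM, above them.

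Set beside adventitial fibroblasts of the same library, members differed in a broad set of genes that the rule did not use. The adventitial class met the fibroblast part of the rule with at least 2 of Pi16, Scara5 and Dpt, fewer than 3 alveolar genes and no Hhip, and had 39, 80 and 16 cells in lung replicates 5 and 6 and metastasis replicate 5. Sums were fitted with edgeR's quasi-likelihood test with the library as a block, and 483 of 3424 genes tested passed at an adjusted p below 0.05 (14.1%), 267 higher (7.8%) and 216 lower (6.31%) in members. Both classes were set by genes read in the same cells, so a gene that follows those genes had to differ and the test speaks of how steady the difference was across 3 libraries. Without the library block 241 genes passed, and without lung replicate 5, 248.

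The 12 named genes highest in members were Col13a1, Scube2, Lrat, Gria1, Slc7a10, Tnfrsf19, Tagln, Mme, Nebl, Cacna1d, Prkg2 and Scn3a, with log2 fold changes of 5.33 to 7.99. Col13a1 (chr10:61838236-61979108, GRCm38, minus strand), a transmembrane collagen, had 272, 235 and 114 CPM in members against 0, 0 and 0 CPM in adventitial cells of lung replicates 5 and 6 and metastasis replicate 5 (adjusted p = 2.62e-07). Scube2 (chr7:109798676-109865679), a secreted carrier of hedgehog ligands, had 233, 176 and 146 against 0, 0 and 0 CPM. Lrat (chr3:82892579-82903973), which esterifies vitamin A for storage, had 162, 249.6 and 77.4 against 0, 0 and 0 CPM. All 3 had 0 UMIs in every adventitial sum, so their fitted fold change depends on the prior count and is no bound. None of the 3 passed in the fit against Hhip cells of the same libraries, described below. There the log2 fold changes of Col13a1, Scube2 and Lrat were 0.71, 0.98 and 0.12. Nebl, a cytoskeletal nebulin relative, had 519, 668 and 173 against 0, 28.1 and 0 CPM (log2 fold change 5.58 ± 0.49 (SE), adjusted p = 4.67e-08). The sodium channel Scn3a had 363, 404 and 77.4 against 0, 21.1 and 0 CPM, the calcium channel Cacna1d 422, 294 and 196 against 9.14, 7.03 and 0 CPM, and the glutamate receptor subunit Gria1 110.3, 117 and 68.3 against 0, 0 and 0 CPM. All 12 were higher in members in each of the 3 libraries, which the rule for naming genes asks, as were 25.5% of the genes tested. A few cells held much of the RNA of Tagln and 6 other contractile genes, 3 members having 93.9% of 825 UMIs in lung replicate 5, 78.6% of 14 in lung replicate 6 and 69.9% of 259 in metastasis replicate 5, where 31 of 68 members had a UMI.

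Lower in members were Ebf2, Ackr3, Sfrp4, Dio2, F3, Adgrd1, Gxylt2, Il33, Scara3, Ly6a, Aldh1a3 and Apod, with log2 fold changes of -7.12 to -4.34. Ly6a (chr15:74994877-74998031, minus strand), the surface antigen Sca-1, had 129.7, 44.0 and 100.1 CPM in members against 2048, 1047 and 3158 CPM in adventitial cells (log2 fold change -4.54 ± 0.30 (SE), adjusted p = 1.38e-09). Il33 (chr19:29925114-29960718, plus strand), an alarmin cytokine, had 0, 29.4 and 0 against 274, 112 and 372 CPM, and F3, the tissue factor that starts coagulation, had 6.49, 0 and 4.55 against 242, 239 and 81.7 CPM. These 12 were lower in each library, as were 19.5% of the genes tested. Ebf2, an adipogenic transcription factor, Ackr3, a scavenging receptor for Cxcl12, and Dio2, which activates thyroid hormone, had no UMI in the members of these libraries.

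**Figure D3:**
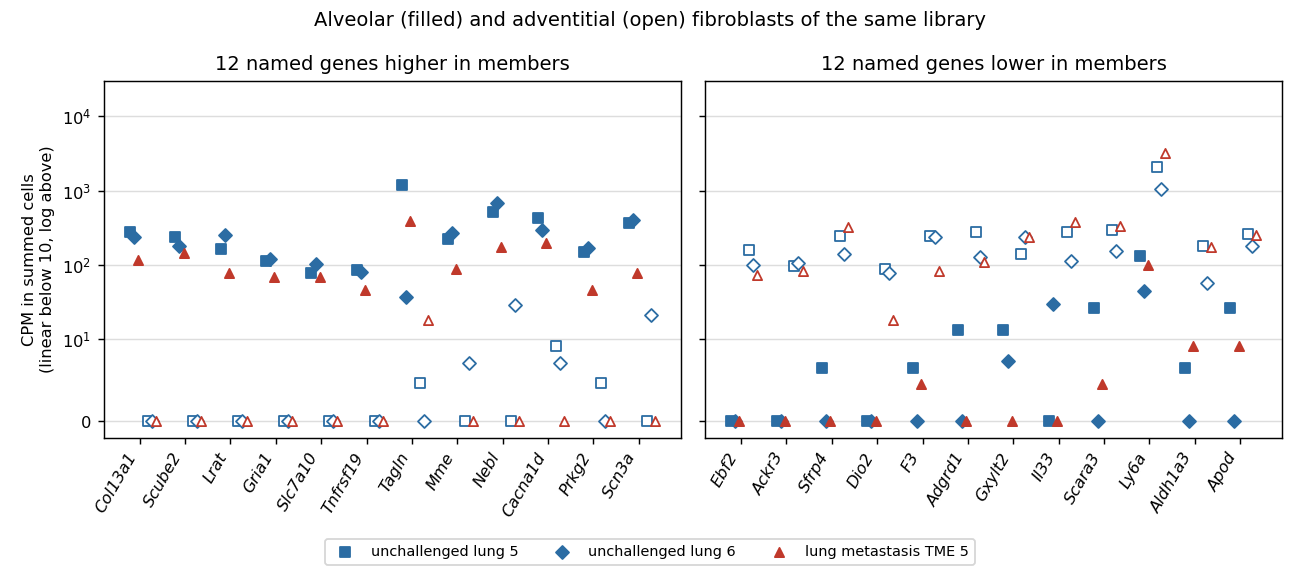
Level in CPM (vertical axis, linear below 10 and log above) in summed members (filled) and adventitial fibroblasts (open) of unchallenged lung replicates 5 and 6 (blue) and lung metastasis TME replicate 5 (red), for the 12 named genes higher (left) and the 12 lower (right) in members. For Ly6a the filled points lie between 44.0 and 129.7 CPM and the open ones between 1047 and 3158 CPM.

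Gene lists grouped these differences by function, beside 7.8% higher and 6.31% lower over all genes tested. Of 21 alveolar fibroblast genes outside the rule that were tested, 14 were higher, 1 was lower and 6 did not pass (median log2 fold change 2.28, against -0.00 over all genes tested). Fmo2, a monooxygenase, had 3463, 2312 and 1902 against 731, 682 and 617 CPM (log2 fold change 1.81 ± 0.22 (SE), adjusted p = 1.82e-06) and Cdo1, which oxidizes cysteine, 609.6, 506 and 196 against 18.3, 28.1 and 0 CPM. Gdf10 was the 1 that was lower, with 64.9, 29.4 and 13.7 against 251, 134 and 54.4 CPM. Of 10 lung mesenchyme transcription factors, 4 were higher and 1 lower. Tbx2 had 389, 359.7 and 323 against 18.3, 7.03 and 27.2 CPM and Tbx4 149, 147 and 86.5 against 13.7, 14.1 and 18.1 CPM, both T-box factors of the lung bud, and Osr1 was lower, with 201, 80.7 and 68.3 against 329, 119 and 363 CPM. Growth factors and niche ligands had 6 higher and 2 lower of 13. Bmp5 (162, 117 and 81.9 against 13.7, 7.03 and 0 CPM), Hgf (64.9, 88.1 and 59.2 against 13.7, 14.1 and 27.2 CPM), Fgf7, Vegfa and Angpt1 were among the higher, and Wnt5a and Igf1 lower. Igf1 had 77.8, 58.7 and 100.1 against 187, 197 and 227 CPM.

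The counts in the lists that follow stand beside 7.8% higher, 6.31% lower and 14.1% in either direction over all genes tested. In the elastic fiber and microfibril list 1 of 16 was higher and 4 were lower. Fibulin 2 (Fbln2) had 38.9, 7.34 and 41.0 against 773, 309 and 608 CPM (log2 fold change -4.25 ± 0.36 (SE), adjusted p = 3.58e-08), and Fbn1, Fbln1 and Mfap5 were lower too, while Emilin1, an elastic fiber glycoprotein, was higher. Of 18 fibrillar and other matrix genes 2 were higher and 3 lower. Prelp, a small leucine-rich proteoglycan, had 798, 455 and 592 against 142, 134 and 172 CPM and Sparcl1 also stood above, whereas Col14a1 had 156, 51.4 and 91.0 against 1330.2, 555 and 1089 CPM, and Lum and Tnxb were lower as well. Basement membrane and integrin genes had 0 higher and 2 lower of 14, Nid1 and Lamb2, a share near the one over all genes. Lipid genes had 3 higher of 10, Lrat, Apoe and G0s2, and Apoe, the lipid carrier, had 3223, 1108 and 3427 against 1143, 625 and 898 CPM. Of 11 inflammatory genes 5 were lower, Ccl11, Cxcl12, Il1r1, Il33 and the complement gene C3, and 1, Vcam1, was higher. C3 had 1135, 558 and 710.0 against 3319, 1328 and 2269 CPM. The myofibroblast and activation list had 6 higher and 1 lower of 10, the 6 being Acta2, Tagln, Myl9, Tpm1, Tpm2 and Thbs1. Acta2, Tagln, Myl9 and Tpm2 are among the contractile genes that a few cells carried. Interferon-stimulated and MHC class I genes had 0 calls among 7 tested. The melanoma markers Dct, Pmel and Syt4 were called higher in members too, with 6431 CPM of Dct in members and 1597 in adventitial cells of the metastasis library. Per cell the medians of Dct there were close, 12 UMIs in members and 10 in adventitial cells, at median depths of 2677 and 6798 UMIs. The part of depth in this difference was not tested.

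Hhip cells of the same library met the fibroblast part of the rule with a UMI of Hhip. There were 21, 32 and 32 of them in lung replicates 5 and 6 and metastasis replicate 5, and 101 of 3424 genes passed (2.95%), 37 higher (1.08%) and 64 lower (1.87%) in members. This count fell to 0 without the library block, where 226 genes had an unadjusted p below 0.05, to 52 with DESeq2 (10 higher and 42 lower) and to 25 without lung replicate 5 (1 higher and 24 lower). Higher in members were Fam126b, Cdo1, Nrp2, Trf, Pkig, Mme, Adra1a, Hivep3, Nebl, Mapt, Cacna1d and Ppp1r14a, with log2 fold changes of 1.48 to 2.15. Trf, the iron carrier transferrin, had 298, 367 and 496 CPM in members against 109, 85.6 and 114 CPM in Hhip cells (log2 fold change 1.86 ± 0.30 (SE), adjusted p = 0.000694), and Cdo1 had 609.6, 506 and 196 against 96.1, 209 and 47.3 CPM. In each of the 3 libraries 17.7% of the genes tested were higher and 14.8% lower. Called lower were Ackr3, Dio2, F3, Sfrp4, Tspan11, Gxylt2, Igfbp5, Adgrd1, Creb5, Ly6a, Smoc2 and Fbln2. Hhip cells had no limit on Pi16, Scara5 and Dpt, while members held fewer than 2 of them. Pi16 and Scara5 had log2 fold changes of -4.08 and -7.74, and genes that follow them had to be lower in members. Ackr3, Dio2, F3, Sfrp4, Gxylt2, Adgrd1 and Ly6a were also named lower against adventitial cells. Igfbp5 (chr1:72857932-72874884, minus strand), a binding protein of insulin-like growth factors, had 64.9, 161 and 86.5 against 1762, 1949.5 and 464 CPM (log2 fold change -3.67 ± 0.46 (SE), adjusted p = 3.69e-05), and F3 had 6.49, 0 and 4.55 against 141, 199.7 and 161 CPM. Among the lists, 5 of 21 alveolar fibroblast genes outside the rule were higher and 0 lower. Wnt5a and Igf1 were lower and Angpt1 higher among 13 growth factors. Of 10 lung mesenchyme transcription factors 0 passed, Tbx4 having a log2 fold change of 0.18. The contractile genes Acta2, Tagln, Myl9 and Tpm2 had fitted values above 0 (1.65, 1.84, 1.37 and 1.68) and did not pass. All 3 tested smooth muscle and peribronchial markers, Aspn, Mustn1 and Enpp2, were lower, while Myh11, Actg2, Des and Lgr6 were not tested. Enpp2, which makes lysophosphatidic acid, had 58.4, 29.4 and 41.0 against 545, 124 and 379 CPM.

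The tissue comparison asked how member cells of the lung metastasis TME differ from those of unchallenged lung. It set 1 library against 3, so the fit took the spread from the lung libraries and assumed that the metastasis library varies alike. Of 4886 genes tested 133 passed at an adjusted p below 0.05 (2.72%), 120 higher (2.46%) and 13 lower (0.266%) in metastasis members. The median log2 fold change over all genes tested was -0.15 (-0.25 with upper-quartile scaling), and fold changes are to be read against it. The library names carry a run number, whose kind is not given, and lung replicates 5 and 6 share it with the metastasis library. Within that run, that is without lung replicate 4, 586 genes passed, 420 higher and 166 lower, among them 132 of the 133. DESeq2 called 55, 43 of them shared. With the added lung replicate 1 and metastasis replicate 4, of 2 members each, 26 genes passed, 21 higher and 5 lower, and with the replicate number as a block as well 15 passed, 7 higher and 8 lower. Without lung replicate 5 the calls were 118 higher and 58 lower.

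Melanoma markers led the higher side. Beside 6 of 7 melanoma markers, genes named on this side were Ptgds, Syngr1, Saa3, Slc45a2, Tubb3, Spp1, Car6, Gpnmb, Ptn, Fkbp11 and Ccnd1, with log2 fold changes of 4.25 to 10.59. Ptgds (chr2:25466709-25470046, GRCm38, minus strand), a prostaglandin D synthase, had 0, 0 and 0 CPM in unchallenged lung replicates 4, 5 and 6 and 1015 CPM in lung metastasis TME replicate 5, at least 162-fold higher against 3 UMIs over the lung group. Gpnmb, a melanosome glycoprotein, had 0, 13 and 0 CPM in unchallenged lung replicates 4, 5 and 6 and 842 CPM in lung metastasis TME replicate 5, and Slc45a2, a melanosome transporter, 228 CPM against 0 in each lung library. Endothelial cells of the metastasis library also held these genes, at 680.5, 722 and 156 CPM for Ptgds, Gpnmb and Slc45a2, and 5667 CPM of Dct beside 6431 in members. Syngr1, Tubb3 and Car6 had 379, 137 and 114 CPM in endothelial cells beside 428, 200.3 and 164 in members. The 4 members of the other metastasis libraries held 4 UMIs of Ptgds (171 CPM), 2 of Gpnmb, 9 of Dct (385 CPM) and 0 of Slc45a2, Syngr1, Tubb3 and Car6. These 7 genes were thus present in both cell types of the 1 library. Ptgds, Syngr1, Saa3, Slc45a2, Tubb3, Car6 and Ptn had 0 UMIs in lung replicates 4, 5 and 6. Their fitted fold changes depend on the prior count, and they passed the expression filter through the metastasis library alone.

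Saa3 and Spp1 had unlike levels in members and endothelium. Saa3 (chr7:46711998-46715700, minus strand), an acute-phase protein, had 0, 0 and 0 CPM in unchallenged lung replicates 4, 5 and 6 and 346 CPM in lung metastasis TME replicate 5. That is at least 55.3-fold higher against 3 UMIs over the lung group. Saa3 passed the expression filter through the metastasis library alone, so its fit is no separate evidence. Its 76 UMIs lay in 12 of 68 members, 34 of them in 1 cell, and endothelial cells of the library held 39.3 CPM and adventitial cells 218 CPM. In the fit of members against Hhip cells of the same library, Saa3 had a log2 fold change of 0.22 ± 0.43 (SE) and did not pass. Spp1 (chr5:104435118-104441050, plus strand), the secreted protein osteopontin, had 0, 0 and 7.34 CPM in unchallenged lung replicates 4, 5 and 6 and 646 CPM in lung metastasis TME replicate 5. Its fitted log2 fold change of 8.0 rests, on the lung side, on the level of lung replicate 6 alone. Spp1 lay in 11 members, 62 of its 142 UMIs in 1 cell, with 31.1 CPM in endothelial and 27.2 CPM in adventitial cells. Ptn, a heparin-binding growth factor, lay in 4 members. Saa3 and Spp1 were thus read in a minority of members. The 4 members of the other 3 metastasis libraries, with 23387 UMIs, held none of either. For counting error only, this allows up to 128 CPM of each. RNA held by a minority of cells can be absent from 4 cells, so these members do not show a lower level. The 2 members of lung replicate 1 held 1 UMI of Saa3 and are not part of the 55.3-fold bound.

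Genes raised across more members were Timp1, Mt1, Fabp5, Stmn1 and Tubb5, each found in 20 to 47 of the 68 without thinning. Melanoma RNA was read in all 68 as well, and the part of RNA from other cells in these counts was not tested. Timp1, an inhibitor of matrix metalloproteases, had 10.6, 58.4 and 7.34 CPM in unchallenged lung replicates 4, 5 and 6 and 259 CPM in lung metastasis TME replicate 5 (log2 fold change 3.50 ± 0.64 (SE), adjusted p = 0.00725). The metallothionein Mt1 had 21.2, 77.8 and 125 CPM in unchallenged lung replicates 4, 5 and 6 and 496 CPM in lung metastasis TME replicate 5 (log2 fold change 2.94 ± 0.56 (SE), adjusted p = 0.00899) and was found in 47 of 68 members. Fabp5, a fatty acid carrier, had 5.29, 0 and 80.7 CPM in unchallenged lung replicates 4, 5 and 6 and 291 CPM in lung metastasis TME replicate 5 (log2 fold change 3.61 ± 0.80 (SE), adjusted p = 0.0261). For each the metastasis library lay above lung replicates 4, 5 and 6. Endothelial cells stood at 0.721, 2.94 and 2.75 against 73.4 CPM for Timp1, 1.98, 30.6 and 143 against 376 for Mt1 and 8.84, 14.0 and 52.9 against 794 for Fabp5 in the same order of libraries. In the 4 members of the other metastasis libraries Mt1 had 32 UMIs, 1368 CPM (exact 95% interval 935.9 to 1932), and Timp1 4 UMIs, 171 CPM (46.6 to 438), while Fabp5 and Stmn1 had 0 UMIs. The 2 members of lung replicate 1, with 15246 UMIs, held 4 UMIs of Timp1, 262 CPM and so as much as metastasis replicate 5, 2 of Mt1 (131 CPM) and 0 of Fabp5. The microtubule genes Stmn1 and Tubb5 had 228 and 459.7 CPM in metastasis members against lung levels of at most 66.1 and 169 CPM. Sparc, a collagen-binding matrix protein, had 1666, 1758 and 1409 CPM in unchallenged lung replicates 4, 5 and 6 and 4488 CPM in lung metastasis TME replicate 5 but did not pass (adjusted p = 0.0865), with 5217 CPM in the other metastasis libraries (122 UMIs, 4332 to 6229) and 3345 CPM in lung replicate 1, and endothelial Sparc stood at 335, 171 and 108 against 4143 CPM.

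**Figure D4:**
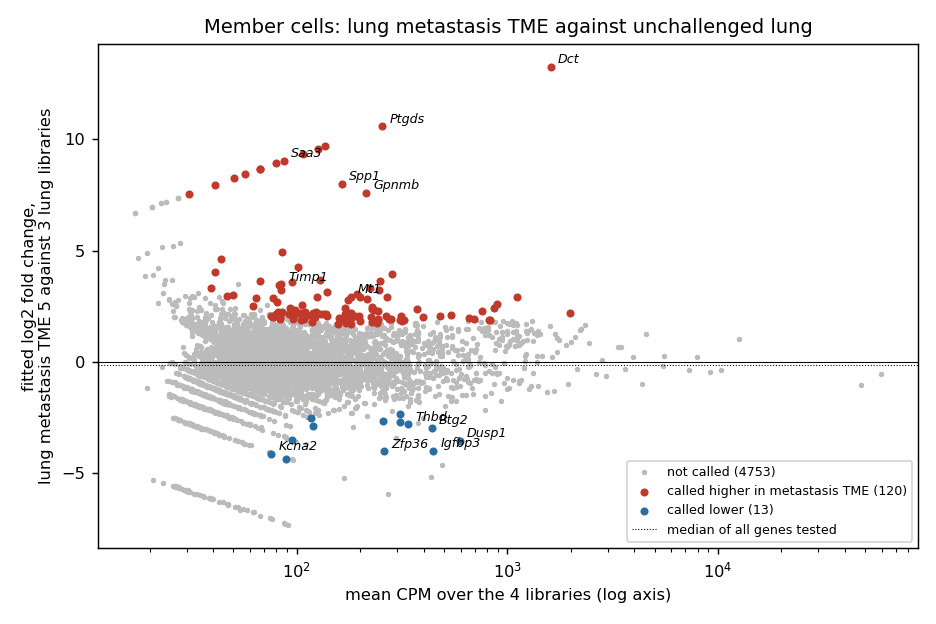
Fitted log2 fold change of summed members, lung metastasis TME replicate 5 against 3 unchallenged lung libraries (vertical axis), against mean CPM over the 4 libraries (horizontal log axis), one point for each of 4886 genes tested. Red points are the 120 genes called higher, blue the 13 called lower, gray the rest, and the dotted line is the median at -0.15.

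On the lower side were Fam43a, Kcna2, Zfp36, Igfbp3, Dusp1, Tmtc1, Btg2, Runx1t1, Thbd, Kcnq1ot1, Ccn1 and H2-T23, with log2 fold changes of -4.34 to -2.51, and Fos, the thirteenth call. H2-T23 is one of a family of near-identical MHC genes whose reads may be split in counting, so its value is uncertain. Zfp36 (chr7:28376784-28380253, minus strand), which destabilizes cytokine mRNAs, had 179.8, 344 and 499 CPM in unchallenged lung replicates 4, 5 and 6 and 18.2 CPM in lung metastasis TME replicate 5 (log2 fold change -4.00 ± 0.82 (SE), adjusted p = 0.0154). Dusp1 (chr17:26505590-26562128, minus strand), a MAP kinase phosphatase, had 936, 479.9 and 903 CPM in unchallenged lung replicates 4, 5 and 6 and 59.2 CPM in lung metastasis TME replicate 5 (log2 fold change -3.53 ± 0.73 (SE), adjusted p = 0.0168), and Btg2, an antiproliferative early gene, 545, 759 and 382 CPM in unchallenged lung replicates 4, 5 and 6 and 63.7 CPM in lung metastasis TME replicate 5. The metastasis library lay below lung replicates 4, 5 and 6 for each. The 2 members of lung replicate 1 held 0 UMIs of Zfp36, 1 of Dusp1 (65.6 CPM) and 6 of Btg2 (394 CPM), and the 4 members of the other metastasis libraries 0, 2 and 1. In endothelial cells Zfp36 had 69.8, 192 and 404 against 9.98 CPM, Dusp1 207, 232 and 541 against 66.3 CPM and Btg2 173, 173 and 222 against 69.3 CPM, so they were low in both cell types of the metastasis library. Igfbp3 (chr11:7206086-7213923, minus strand), a binding protein of insulin-like growth factors, had 714, 415 and 617 CPM in unchallenged lung replicates 4, 5 and 6 and 31.9 CPM in lung metastasis TME replicate 5 (log2 fold change -4.00 ± 0.74 (SE), adjusted p = 0.00725), and here endothelial cells stood higher in the metastasis library, at 541 CPM against 1.08, 0 and 4.81 in lung. Igfbp3 had 0 UMIs both in the members of lung replicate 1 and in those of the other metastasis libraries. Thbd, the anticoagulant receptor thrombomodulin, had 386, 415 and 499 CPM in unchallenged lung replicates 4, 5 and 6 and 54.6 CPM in lung metastasis TME replicate 5 and was lower in endothelial cells too (1471, 1363 and 1323 against 323 CPM). The potassium channel Kcna2 had 143, 104 and 51.4 CPM in unchallenged lung replicates 4, 5 and 6 and 4.55 CPM in lung metastasis TME replicate 5, with at most 1.37 CPM in endothelial cells. For other named genes the small libraries ran the other way. The pooled other metastasis members stood above lung replicate 1 for Fam43a (171 against 131 CPM), Runx1t1 (171 against 65.6 CPM), Kcnq1ot1 (428 against 262 CPM), H2-T23 (513 against 394 CPM) and Kcna2 (1 UMI against 0), from at most 12 UMIs each, and the exact 95% intervals of the first 4 include the value of lung replicate 1. For Tmtc1 they stood at 171 against 328 CPM, Ccn1 had 0 UMIs in both, and Thbd had 0 against 722 CPM.

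**Figure D5:**
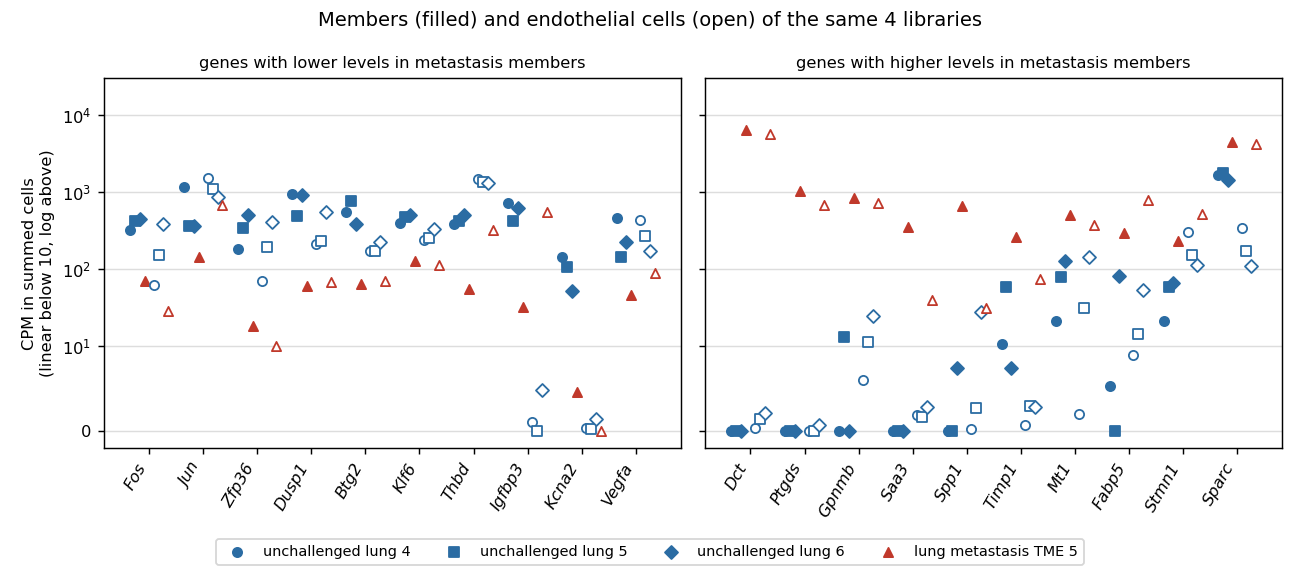
Level in CPM (vertical axis, linear below 10 and log above) in summed members (filled) and endothelial cells (open) of unchallenged lung replicates 4, 5 and 6 (blue) and lung metastasis TME replicate 5 (red), for 10 genes low (left) and 10 high (right) in metastasis members, of which Jun, Klf6, Vegfa and Sparc did not pass the test. Zfp36 is low and Dct high in both cell types of the metastasis library, and Igfbp3 is low in members (31.9 CPM) but not in endothelial cells (541 CPM).

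The gene lists show where the tissue difference did and did not reach the test, beside 2.46% higher and 0.266% lower over all genes tested. The immediate early and heat shock list had 0 higher and 4 lower (Fos, Zfp36, Btg2, Dusp1) of 22 tested, with a median log2 fold change of -1.60, and 14 of the 22 lay below lung replicates 4, 5 and 6, where 37.1% of all genes tested did. Jun had 1174, 357 and 359.7 CPM in unchallenged lung replicates 4, 5 and 6 and 141 CPM in lung metastasis TME replicate 5 without passing. Hspa8, a constitutive chaperone, ran the other way, with 497, 344 and 323 CPM in unchallenged lung replicates 4, 5 and 6 and 988 CPM in lung metastasis TME replicate 5, and did not pass either. Its pooled level in the 4 members of the other metastasis libraries was 428 CPM (exact 95% interval 205 to 786), within the lung range, and lung replicate 1 stood at 984 CPM (15 UMIs), so the direction was not that of every library. Of 22 alveolar fibroblast genes outside the rule 0 passed, the median being -0.71, and 14 lay below lung replicates 4, 5 and 6. Nebl (793, 519 and 668 CPM in unchallenged lung replicates 4, 5 and 6 and 173 CPM in lung metastasis TME replicate 5) and Cdo1 (878, 609.6 and 506 CPM in unchallenged lung replicates 4, 5 and 6 and 196 CPM in lung metastasis TME replicate 5) had the lowest fitted values of the list. The other metastasis libraries pooled held 812 CPM of Cdo1 (19 UMIs, exact 95% interval 489 to 1269), within the lung range, and 214 CPM of Nebl (5 UMIs, 69.4 to 499), while lung replicate 1 held 1246 and 197 CPM. Fmo2, lowest in metastasis replicate 5 of the 4 libraries, stood at 5430.4 CPM (4527 to 6461) in the other metastasis libraries and at 853 CPM in lung replicate 1. Of 10 lung mesenchyme transcription factors 0 passed, with a median of -1.14 and 8 below lung replicates 4, 5 and 6. Nr2f2, an orphan nuclear receptor, had 878, 1128 and 837 CPM in unchallenged lung replicates 4, 5 and 6 and 291 CPM in lung metastasis TME replicate 5, with 257 CPM in the other metastasis libraries (6 UMIs, 94.2 to 558) and 328 CPM in lung replicate 1. All 10 fitted values lay below 0, as did the median over all genes tested, at -0.15.

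Growth factors and niche ligands had 0 calls of 16, a median of -0.62 and 9 below lung replicates 4, 5 and 6. Vegfa, the endothelial growth factor, had 455, 143 and 220.2 CPM in unchallenged lung replicates 4, 5 and 6 and 45.5 CPM in lung metastasis TME replicate 5 (adjusted p = 0.0732), Angpt1, the Tie2 ligand, 550.0, 344 and 367 CPM in unchallenged lung replicates 4, 5 and 6 and 168 CPM in lung metastasis TME replicate 5, and Fgf10, which maintains distal epithelium, 52.9, 84.3 and 58.7 CPM in unchallenged lung replicates 4, 5 and 6 and 31.9 CPM in lung metastasis TME replicate 5. Over all genes tested, 37.1% lay below lung replicates 4, 5 and 6. The other metastasis libraries pooled held 3 UMIs of Vegfa, 128 CPM (26.5 to 375), where lung replicate 1 held 0, and 85.5 CPM of Angpt1 against 394 CPM there. The matrix lists had no call either: 0 of 15 elastic fiber genes (median 0.20), 0 of 15 basement membrane genes (median -0.01) and 0 of 18 other matrix genes (median 0.35, 8 above lung replicates 4, 5 and 6, where 27.4% of all genes tested did). Eln, the elastin precursor, had 1571, 1219 and 815 CPM in unchallenged lung replicates 4, 5 and 6 and 478 CPM in lung metastasis TME replicate 5, and Mgp, the matrix Gla protein, 7859, 15409 and 7957 CPM in unchallenged lung replicates 4, 5 and 6 and 18875 CPM in lung metastasis TME replicate 5. The other metastasis libraries pooled held 1710.3 CPM of Eln (40 UMIs, exact 95% interval 1222 to 2329), above the printed lung levels, and 43657 CPM of Mgp, while lung replicate 1 held 26368 CPM of Mgp, above metastasis replicate 5. In the myofibroblast and activation list 2 were higher (Timp1, Spp1) and 1 lower (Ccn1) of 13. Acta2, smooth muscle actin, had 291, 1751 and 29.4 CPM in unchallenged lung replicates 4, 5 and 6 and 528 CPM in lung metastasis TME replicate 5 and so overlapped between tissues, and Lrrc15 had 0 UMIs in all 4 sums. Single calls in the next lists, where 2.46% of all genes tested were called higher, say nothing of the lists as such. Of 12 inflammatory genes 1 (Saa3) was higher, of 11 lipid genes 1 (Fabp5), of 7 glucocorticoid and metallothionein genes 1 (Mt1) and of 3 cell cycle genes 2 (Stmn1, Tubb5). Interferon-stimulated and MHC class I genes had 0 calls of 15, with a median of -0.12. Mki67 and Top2a had at most 36.7 CPM in any library.

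The metastasis CAF signature (Clu, Cxadr, Lgals7, Calca, Wnt4, Wt1 and Saa3) was chosen by the study on these samples and is no independent evidence. In the tissue comparison Clu and Wnt4 had fitted log2 fold changes of 1.92 and 0.31. Calca and Saa3 had 6.97 and 9.04, but held 0 UMIs in lung replicates 4, 5 and 6, so these values depend on the prior count. Cxadr, Lgals7 and Wt1 were not tested. At 1000 UMIs per cell, Saa3 had a UMI in 6 of 68 (8.82%) metastasis members and in 0 of 37 (0%), 0 of 27 (0%) and 0 of 66 (0%) members of lung replicates 4, 5 and 6, which allow shares up to 8.11%, 11.1% and 4.55%. The difference of 8.82 points had an exact two-sided permutation p = 0.25, the smallest that 1 library against 3 can give. Saa3 was read in 22 of 592 (3.72%) endothelial cells of the metastasis library at the same depth, and the exact 95% intervals of 2.34 to 5.57% in these and 3.31 to 18.2% in members overlapped, with median depths of 2067 and 2677 UMIs before thinning. Wnt4 stood at 5 of 68 (7.35%) in metastasis members and 1 of 37 (2.70%), 1 of 27 (3.70%) and 4 of 66 (6.06%) in lung (exact permutation p = 0.25), a difference of 3.2 points that turned to -0.92 without thinning. Clu stood at 3 of 68 (4.41%) against 0 of 37 (0%), 1 of 27 (3.70%) and 1 of 66 (1.52%) (exact permutation p = 0.5) and at 18.9% in endothelial cells. Differences moved with depth. That of Clu was 2.67 points at 1000 UMIs, 5.43 at 500, 10.6 at 2000 and 7.52 without thinning. That of Saa3 was 2.94 points at 500 UMIs, 14.9 at 2000 and 17.6 without thinning. Wt1 had no UMI in any member of the 4 libraries. Calca was read in 3 metastasis members before thinning, and Lgals7 in 2. Cxadr had a difference of -0.505 points at 1000 UMIs and -1.69 without thinning.

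Whether the tissue difference was particular to members was tested against adventitial cells of the same 3 libraries, with 1 residual degree of freedom. Of 2640 genes tested 0 passed in edgeR (0%), where 160 had an unadjusted p below 0.05, and 0 passed in DESeq2, where 17 did. With no filter on low counts 11 passed in edgeR, 4 higher and 7 lower. Side by side, Zfp36 had 174 and 344 CPM in adventitial cells of lung replicates 5 and 6 and 27.2 CPM in the metastasis library, and Mt1 had 379, 218 and 1134 CPM. The fit does not show that members and adventitial cells changed alike.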

How the data were processed

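Single cells of mouse lung and tumors were profiled with 10x Genomics 3' chemistry. The authors aligned reads to GRCm38 with Cell Ranger 6.1.1 and filtered cells in Seurat 3.2.2 by quantile limits on genes and on mitochondrial and ribosomal RNA. The deposited tables hold raw UMI counts per gene and cell and, beside them, the percent of mitochondrial UMIs of each cell, which the authors computed. Of 24 library names, 5 hold the same cells as another, 1 of them a sorted melanoma library identical to lung metastasis TME replicate 6, and these were counted once, leaving 16 libraries and 100359 cells. Library names that differ from the labels by number were matched by their text. Rule members of each library were summed, and libraries with at least 10 members were tested. Cells lost to the authors' limits were not analysed here. No doublet caller was run, and the rule bars cells with a UMI of the leukocyte, endothelial and epithelial genes it names.

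Sums were tested with edgeR 4.0.16 (quasi-likelihood, TMM scaling, filterByExpr) in R 4.3.3, with Benjamini-Hochberg adjustment over all genes tested and calls at an adjusted p below 0.05. Errors of fold changes, marked SE, are approximate. Each is the size of the log2 fold change divided by the square root of its quasi-likelihood F value. Deposited library names give each of the 4 libraries tested a mouse number of its own. Shares of cells were taken after thinning to 1000 UMIs and compared by exact permutation over libraries. Counting intervals are exact (Clopper-Pearson or Poisson) at 95%, a count of 0 was taken to allow 3, and both cover counting error only. Named genes were, in each comparison, the 12 with the largest and the 12 with the smallest fold change among genes called, with at least 20 mean CPM and no overlap between groups (classes: the same direction in every library), leaving out genes of the rule, markers of other cell types, unnamed or mitochondrial genes and ribosomal protein genes. Some genes that meet this rule or belong to a list are not reported here. Genes in GRCm38 coordinates follow GENCODE annotation. Members, lists and tests were chosen with earlier results of these data known. Alternatives were DESeq2 1.42.0, other filters, scaling, cell minimums and rule limits, thinned counts, the replicate block and leaving out each library. Exclusions of contractile-, melanoma- or leukocyte-rich members and the wider set of libraries were added after seeing the data. Python 3.11.15, numpy 2.4.6, scipy 1.17.1, pandas 2.3.3 and matplotlib 3.10.9 were used.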

Additional observations from a re-analysis of the deposited data

Results flagged for a closer look

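Lung metastasis TME replicate 5 stood apart from the other 3 libraries of its group in the number of member cells. It held 68 members where the others held 1, 2 and 1, a gap of 0.985 of the group's range. It stood apart in the number of cells as well, with 5166 where the others held 785, 661 and 1036, a gap of 0.917 of the range. Chance flags about 1 in 20 groups of this size at the limit used.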

How the results depend on the processing

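The tissue comparison (133 genes) gave 55 calls with DESeq2, 343 with no filter on low counts, 55 with cells thinned to 1000 UMIs, 221 and 565 with at least 4 and at least 2 alveolar genes, and 215 with no adventitial gene allowed, which left 124 members, only 7 of them in lung replicate 5, so that this library fell below 10 members and was left out. Added after seeing the data, it gave 202 without contractile-rich members, 394 without leukocyte-rich members, 105 without melanoma-rich members and 26 with libraries of at least 2 members. Leaving out 1 lung library gave 176 to 586 calls, with 586 without lung replicate 4 and 235 without replicate 6. It could not be fitted without lung metastasis TME replicate 5. The melanoma exclusion removed 1 of the 68 members of that library, while all 68 held Dct. The leukocyte exclusion removed 41 of 74 members of lung replicate 6 and 4 of 27 of lung replicate 5, so it also changed the lung group. The adventitial comparison (483) gave 313 with DESeq2, 126 thinned and 248 to 516 with a library left out. The Hhip comparison (101) gave 52, 32 and 25 to 100. In both the lowest with a library left out was without lung replicate 5. The thinned fits of the classes tested 623 genes where the main ones tested 3424. In the tissue comparison 1438 genes were tested thinned and 14627 with no filter, against 4886 in the main fit. Calls under these settings are therefore not counts out of the same number of genes. The test of the difference between classes gave 11 calls with no filter, and the Wnt4 share difference turned to -0.92 points without thinning. The cause of these changes was not tested. No named gene changed direction under any setting in which it was tested. Several named genes of the tissue comparison lost their call with DESeq2, with thinned counts and with the wider set of libraries, and which ones is not reported here.

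With no replicate block the adventitial comparison gave 241 calls and the Hhip comparison 0. In the tissue comparison the 3 lung libraries and the metastasis library share only number 5, so a replicate block could be fitted only with the libraries of at least 2 members, where it gave 15 calls (7 higher, 8 lower) against 26 without the block. Deviations of same-numbered libraries from their group means correlated at 0.047 for number 4 and 0.0057 for number 5 over 3539 genes. These used libraries of at least 2 members, so the metastasis group held only replicates 4 and 5, replicate 4 with 2 members. The deviations of those 2 libraries mirror each other, so the values cannot decide on a pairing. Same-numbered libraries share a run number in their names, whose kind is not given and which replicates 5 and 6 also share.

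The metastasis side rests on 1 library of 68 members. Depth was lowest in lung replicate 6, with a median of 1401 UMIs per member.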

Other observations

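Marker lists of other lung cells gave values in the summed members that are not described above. Alveolar type 2 markers summed to 26.4, 402 and 1784 CPM in lung replicates 4, 5 and 6 and to 464 CPM in lung metastasis TME replicate 5, within the range of the lung libraries. Smooth muscle and peribronchial markers summed to 418, 1388 and 117 CPM against 205 CPM, again within that range. Pericyte markers summed to 47.6, 149 and 73.4 CPM against 387 CPM, above all 3 lung libraries. Of the 7 markers only Cspg4 and Pdgfrb were tested, with log2 fold changes of 3.66 and 1.74. Cspg4 is a proteoglycan of pericytes that melanoma cells also make. Rgs5, Notch3, Higd1b, Cox4i2 and Postn were not tested and did not lie above the lung libraries. The 4 cells of the primary tumor TME that met the rule held 5382 UMIs in replicate 5 (1 cell) and 23689 UMIs in replicate 6 (3 cells).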
